A study of Mus musculus with 3 samples.

Results

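The ligand genes Bmp2, Bmp4, Bmp5, Bmp7 and Bmp10 and the response genes Id1, Id2, Id3, Smad6 and Smad7 were followed in mesodermal cells of the early mouse embryo. These 10 genes were taken by symbol from the 51923 genes counted. All 10 were found and all 10 had counts, together 339236 of the 331587989 unique molecular identifiers (UMIs, 1 per captured RNA molecule) in 14777 cells.

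Bone morphogenetic proteins (BMPs) are secreted dimers that bind paired type I and type II receptors, which phosphorylate Smad1, Smad5 and Smad9. Together with Smad4 these activate target genes in the nucleus, among them the Id genes, whose products hold back basic helix-loop-helix transcription factors, and Smad6 and Smad7, whose products inhibit the same pathway. In the embryo BMP signals are known for their part in inducing heart muscle, in the allantois and in the outflow tract, while secreted antagonists such as Noggin, Follistatin and Gremlin limit their reach.

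All embryos were on a C57BL/6 background and carried Mesp1-Cre, a recombinase expressed in early mesoderm, and the Ai9 reporter, which turns cells red after recombination. Controls had 1 floxed and 1 intact copy of Wls (Wls fl/+), and mutants 2 floxed copies (Wls fl/fl), so the controls also carried the Cre and 1 floxed allele. Wls encodes a transmembrane protein needed for Wnt secretion, and it is lost only in cells that have expressed Cre. Sorted red cells of embryos at embryonic day 8.0, 8.5 and 9.5 were tagged with lipid barcodes, pooled and sequenced in 3 runs. Each sample was the sum of the cells that share a barcode, here called by the barcode's name. There were 3 controls and 3 mutants at E8.0 (1549 and 1653 cells), 2 controls and 1 mutant at E8.5 (2542 and 487 cells), and 6 controls and 6 mutants at E9.5 (5733 and 2785 cells). One control of 28 cells labelled E7.5 entered only as a stage of its own. How many embryos a barcode held is not stated, so p-values measure the spread between these samples, which may be partly technical.

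A sample held 6 to 2508 cells and 134457 to 61307782 UMIs. All E8.0 samples were in run 1 and all E8.5 samples in run 2, while E9.5 samples were in all 3 runs. Run 1 was sequenced on a NovaSeq and the others on a NextSeq, per the labels. Of the cell barcodes 23 occurred in more than 1 run (46 cells). Wls was lower in mutants at each stage. It had 54.1 to 65.4 CPM (UMIs of a gene per 1000000 UMIs of the sample) in E8.0 controls and 7.25 to 14.2 CPM in E8.0 mutants, and 35.9 to 46.1 CPM in E9.5 controls and 8.54 to 12.1 CPM in E9.5 mutants.

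Cells were also grouped by lineage markers, none of them a member. A cell was in a gate when at least 3 of 5 markers had a UMI and it passed no other gate. The gates were named after their markers: cardiomyocyte (Tnnt2, Actn2, Myh6, Ttn, Myl4; 1126 cells), endothelial (Cdh5, Pecam1, Tek, Emcn, Egfl7; 528), erythroid (Gata1, Klf1, Alas2 and Epor among them; 2164), anterior second heart field (Isl1, Tbx1, Fgf10 and Eya1 among them; 1170), posterior second heart field (Osr1, Foxf1, Hoxb1, Wnt2, Osr2; 1062), paraxial (Meox1, Meox2, Tcf15, Foxc2, Pax1; 1876) and allantois (Tbx4, Hoxa10, Hoxa11, Pitx1, Hoxa13; 290). Smaller gates held 163 proepicardial, 212 neural and 58 endoderm cells. A further 1307 cells passed several gates and 4821 passed none. Myl7, a heart muscle gene that was no gate marker, had 10664 CPM in the cardiomyocyte gate and 17.2 to 888 CPM in the other gates. The embryonic globin Hbb-y had 127539 CPM in the erythroid gate and 613 to 833 CPM in every other gate, a like low level across cell types. Of 21 such check genes 17 were highest in the gate they were set for. The other 4 were Gata4 (41 CPM in the posterior second heart field gate, 83.1 in the cardiomyocyte and 138 in the proepicardial gate), Tbx5 (40.7 CPM in the posterior and 71.2 in the cardiomyocyte gate), Aldh1a2 (168 CPM in the posterior and 228 in the paraxial gate) and Foxc2, a paraxial marker set as a check of the anterior gate (58.6 CPM there and 134 in the paraxial gate). All 3 checks of the posterior second heart field gate were thus higher elsewhere.

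In control embryos all 5 ligand genes and all 5 response genes were higher in cardiomyocyte-gate cells than in the mean of the other gates. That mean includes the erythroid gate, which was low in nearly all of them, so a higher value need not be a high rank. Id3 had 459.1 ± 118.2 CPM in the cardiomyocyte gate, rank 5 of 7 gates by mean CPM. Of the 7 gates tested, Bmp10 was highest in the cardiomyocyte gate. In the test, cells of the posterior second heart field gate held 8 of the 10 genes above the mean of the other gates, and allantois-gate cells 6. That mean was taken on the log scale, where gates with counts near 0 pull it down. Bmp7 was among the 8, though the posterior gate ranked 4 of 7 for it by mean CPM (17.4). Bmp10 was another, at 0.504 CPM. Ranks by mean CPM compare gates whose samples differ in part. Paraxial cells were low in Bmp2, Bmp4, Smad6 and Smad7. Their Id genes were near the mean that includes the erythroid gate, but Id1 (172.6 CPM) and Id3 (344.0 CPM) ranked 6 of 7 gates. Erythroid cells were low in nearly all. The test set each gate against the mean of the other gates in 9 control samples, with the sample as a block, for 7 gates that had at least 20 cells in at least 3 samples. Of the 70 pairs of gene and gate, 48 passed the threshold, an edgeR adjusted p under 0.05. In the cardiomyocyte gate 10 of 10 were higher, where 27.4% of all 12898 genes tested were. The median log2 difference of the members there was 1.69, beside 0.02 for all genes. The shares of all genes were 17.7% higher in the posterior second heart field gate, 12.7% higher in the allantois gate, 16.9% lower in the paraxial gate and 39.6% lower in the erythroid gate. In the endothelial gate 3 members were higher (17.1% of genes) and 2 lower (14.1%), and in the anterior second heart field gate 4 were higher (18.3%) and 2 lower (14.9%). Of the 48 calls, 1 was lost when a sample was left out, that of Bmp7 in the posterior second heart field gate without Bar3 (0.45, edgeR adjusted p = 0.139). Without Bar22 or Bar26, 46 of the 48 were tested and each of these held, while the calls of Bmp10 had no value. Another gate definition or DESeq2 ended the calls of Bmp2, Bmp4 and Id3 in the endothelial gate, of Bmp2 in the erythroid and anterior second heart field gates and of Bmp10 and Smad7 in the posterior one. The 6 allantois calls had no value with 4 of 5 markers or with gates after thinning, nor had the 2 of Bmp10 after thinning.

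**Figure D1:**
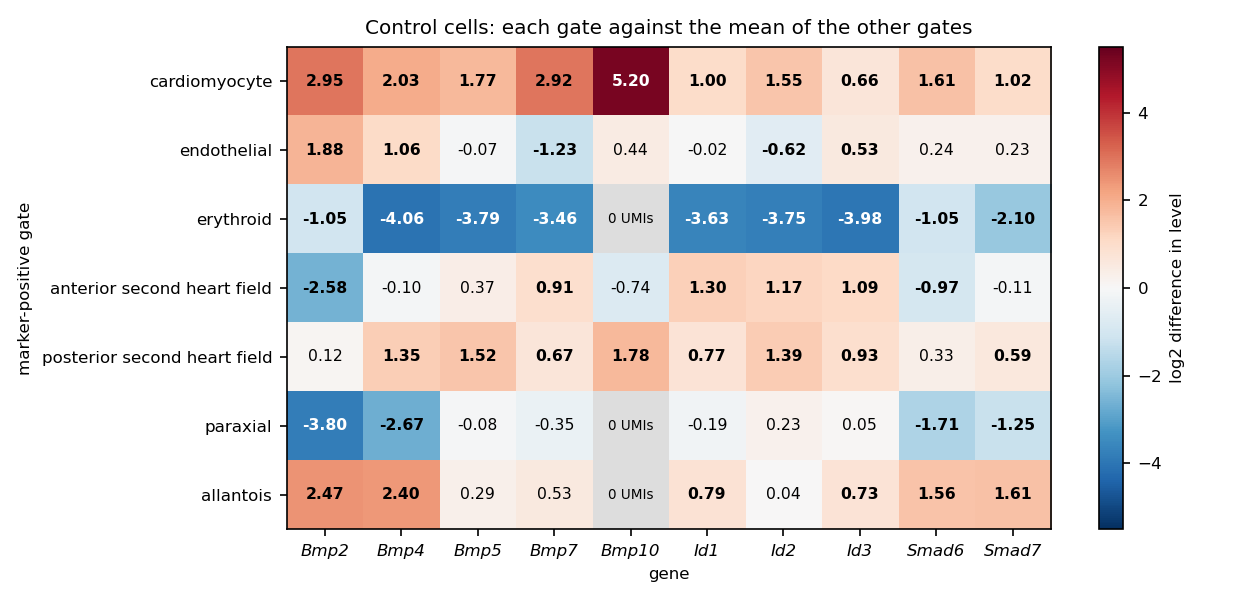
Log2 difference in level between each marker-positive gate (rows) and the mean of the other gates for the 10 genes (columns), control samples; bold values passed the edgeR threshold and grey cells had 0 UMIs. The cardiomyocyte row is positive throughout, from 0.66 for Id3 to 5.20 for Bmp10, and each tested value in the erythroid row is negative.

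Bmp10, a ligand known for its part in the growth of the trabeculated heart wall, had 3.84 ± 3.35 CPM in the cardiomyocyte gate (SD, n = 9). It had 0.504 ± 0.686 CPM in the posterior second heart field gate (n = 8) and 0.250 ± 0.466 CPM in the endothelial gate (n = 7). The log2 difference of the cardiomyocyte gate from the other gates was 5.20 (SE 0.35, edgeR adjusted p = 2.56e-13). The control sums of the erythroid, paraxial and allantois gates had 0 UMIs of Bmp10. The size of this difference thus depends on how the fit treats counts of 0, which the SE does not cover. Counts of this gene were few: 274 UMIs were found in the whole series, and 63 in the 9 control sums of the cardiomyocyte gate. A UMI of Bmp10 was seen in 53 of 630 control cells of the cardiomyocyte gate (8.41%) and in 0 of 1521 erythroid, 0 of 1346 paraxial and 0 of 177 allantois cells of controls. After thinning each cell to 5000 UMIs the shares were 2.32% in the cardiomyocyte gate (exact 95% binomial interval 1.27 to 3.86%) and 0 of 1506 in the erythroid gate. By the limit of 3 counts that count of 0 allows a share of cells with a UMI of up to 0.199% at this thinned depth, which is no limit on cells that express the gene. The median depths were 20112 and 28936 UMIs per cell. In the proepicardial gate 2 control samples had 5.59 and 7.39 CPM, from 6 and 3 UMIs. The gate also held 888 CPM of Myl7, and its part in these counts was not tested.

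Bmp2, a ligand of the atrioventricular canal, had 61.2 ± 16.4 CPM in the cardiomyocyte gate (n = 9), 45.7 ± 19.8 CPM in the allantois gate (n = 4) and 36.2 ± 18.5 CPM in the endothelial gate (n = 7). It had 12.4 ± 7.16 CPM in the posterior second heart field gate, 4.43 ± 5.33 CPM in the erythroid gate, 2.14 ± 0.989 CPM in the anterior one and 0.970 ± 1.02 CPM in the paraxial gate. In this order the ranges of mean ± SD of each gate and the next overlapped. The log2 difference of the cardiomyocyte gate was 2.95 (SE 0.18) and that of the anterior second heart field gate −2.58 (SE 0.32). The posterior gate had 0.12 (SE 0.21), which did not pass.

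Bmp4, a ligand of the allantois and the outflow tract mesoderm, had its highest mean in the allantois gate (132.8 ± 52.1 CPM, n = 4). It had 75.8 ± 40.1 CPM in the cardiomyocyte gate, 64.6 ± 30.1 CPM in the posterior and 27.1 ± 16.2 CPM in the anterior second heart field gate, and 5.38 ± 3.68 CPM in the paraxial gate. The ranges of mean ± SD of the allantois and cardiomyocyte gates overlapped. These means rest on different samples. The allantois sums were of Bar3, Bar22, Bar23 and Bar24, while the cardiomyocyte sums also held E9.5 controls of runs 2 and 3. Single control samples of the cardiomyocyte gate ranged from 23.3 to 148.9 CPM, and the part of the run in this order of means was not tested. The log2 difference was 2.40 (SE 0.21) for allantois and −2.67 (SE 0.24) for paraxial cells. The endothelial gate was higher by 1.06 (SE 0.20), but with 4 of 5 markers required the value was −0.40 and did not pass. Bmp4 levels had a wide spread between samples within each gate, which followed the run at E9.5 and is given with the genotype comparison. The gene overlaps the annotated genes Gm15217 and Gm15222 on the other strand, which were given 1080 UMIs against 14036 for Bmp4. Whether counting used the strand is not stated, so reads of the overlap cannot be told apart.

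Bmp7 had 62.1 ± 9.73 CPM in the cardiomyocyte gate (n = 9) and 22.2 ± 8.74 CPM in the anterior second heart field gate (n = 8). Its log2 difference was 2.92 (SE 0.17) in the first and −1.23 (SE 0.36) in the endothelial gate. Bmp5, which is closely related to Bmp7 in sequence, had 9.23 ± 4.37 CPM in the posterior second heart field gate and 8.00 ± 3.37 CPM in the cardiomyocyte gate. In the other tested gates Bmp5 had at most 4.51 CPM on average. It overlaps Gm47723 and Gm26903, which were given 307 UMIs against 1337 for Bmp5. Bmp7 and Bmp5 thus shared the cardiomyocyte gate, while endothelial cells were low in Bmp7.

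By mean CPM over the 7 gates tested, Id1 and Id3 were highest in a gate where no ligand was. Among these gates Id2 was highest in the cardiomyocyte gate, as were Bmp2, Bmp7 and Bmp10. Of the 7 gates tested, Id1 and Id3 were highest in the anterior second heart field gate, with 410.4 ± 102.4 CPM and 642.4 ± 139.0 CPM (n = 8). These ranges of mean ± SD overlapped with those of the next gate, cardiomyocyte for Id1 and posterior second heart field for Id3. The log2 differences of Id1 and Id3 in the anterior second heart field gate were 1.30 (SE 0.11) and 1.09 (SE 0.12). Of the ligands in the same cells, Bmp2 was lower and Bmp7 higher than the mean of the other gates. In gates outside the test, with 2 control samples each, Id3 had means of 860.9 CPM (proepicardial) and 735.3 CPM (neural), and Id2 had 545.4 CPM in the proepicardial gate. Id2 had 391.1 ± 67.2 CPM in the cardiomyocyte gate (n = 9), 383.2 ± 63.7 CPM in the posterior and 335.3 ± 42.4 CPM in the anterior second heart field gate, and these ranges of mean ± SD overlapped. It was lower in the endothelial gate (114.1 ± 47.8 CPM, log2 difference −0.62, SE 0.16). Id3 was higher there than the mean of the other gates (475.2 ± 225.7 CPM, 0.53, SE 0.13). By mean CPM that gate ranked 4 of 7 for Id3, and the mean of the others includes the low erythroid gate. In paraxial cells Id1, Id2 and Id3 had log2 differences of −0.19, 0.23 and 0.05 that did not pass. By mean CPM only the erythroid gate was lower than the paraxial gate in Id1 and Id3. Erythroid cells had 12.1 CPM of Id1, 10.1 CPM of Id2 and 17.0 CPM of Id3 on average, at log2 differences of −3.63, −3.75 and −3.98.

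The inhibitory Smads were highest in the allantois and cardiomyocyte gates. Smad6 had 45.0 ± 22.0 CPM in the allantois gate (n = 4) and 41.2 ± 4.40 CPM in the cardiomyocyte gate (n = 9), against 9.11 ± 2.30 CPM in the anterior second heart field gate and 5.25 ± 2.23 CPM in the paraxial gate. Smad7 had 171.3 ± 55.7 CPM in the allantois gate, 99.8 ± 19.8 CPM in the cardiomyocyte gate and 26.6 ± 9.49 CPM in the paraxial gate. Their log2 differences in the anterior second heart field gate were −0.97 (SE 0.17) for Smad6, which passed, and −0.11 (SE 0.17) for Smad7, which did not. Smad7 in erythroid cells depended on the stage: the 3 E8.0 controls had 35.9, 22.9 and 37.9 CPM, and the controls of E8.5 and E9.5 had 1.72 to 6.59 CPM.

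Over 21 sums of control cells by gate and stage, the pattern of log2(CPM + 5) was most like that of Tbx20 for Bmp2 (Pearson's r = 0.94) and for Smad6 (0.95), of Krt8 for Bmp4 (0.95), of Pnmt for Bmp10 (0.91), of Jag1 for Bmp7 (0.93) and of Id3 for Id1 (0.97). Among the members themselves, Bmp4 ran closest to Smad7 (0.92) and Smad6 (0.91), and Id2 to Id3 (0.93). The lowest value was 0.25, for Bmp2 with Id2. These r describe 21 sums that share samples and the low erythroid level, and carry no test.

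Other genes of the pathway, from lists of receptors, signal Smads, antagonists and further response genes, showed where the rest of the pathway was expressed. In the cardiomyocyte gate 3 of 9 tested antagonists were higher, near the 27.4% of all genes that were. These were Bmper (log2 difference 3.20), Nog, which encodes Noggin (2.41), and the pseudoreceptor Bambi (1.85). Fst was the 1 that was lower there (−1.28), as were 21.7% of all genes. In the anterior second heart field gate 5 of 9 were higher (18.3% of all genes), led by Fst (3.82), Grem1 (3.58) and Chrdl1 (3.13). Bambi was lower there (−0.61), as were 14.9% of all genes. In the paraxial gate 5 of 9 were higher, where 19.8% of all genes were, led by Fst (4.48), Nbl1 (3.31) and Grem1 (2.60), all extracellular BMP or activin binders, and Bambi was lower (−2.27). In the endothelial gate 4 of 8 receptors were higher (17.1% of all genes), Eng (5.44), Acvrl1 (4.00), Acvr1 (1.17) and Bmpr2 (0.60). There 2 were lower (14.1% of all genes), Acvr2b (−0.45) and Bmpr1a (−0.28). Among 6 further response genes, 5 were higher in the posterior second heart field gate (17.7% of all genes), led by Msx2 (2.24) and Tbx3 (1.98). In the paraxial gate 5 were lower (16.9% of all genes), led by Msx2 (−3.20) and Msx1 (−2.65).

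Over all cells, the question was whether mesoderm without Wls differs in these genes. Bmp10 and Bmp4 were higher in mutants over all stages, and at E9.5 Bmp10, Bmp4 and Smad7 were. No member was lower, and Id1 and Id3 showed no difference that passed. Over all stages 2 of 10 members were higher, where 4.47% of 20831 genes tested were higher and 10.2% passed in either direction. At E9.5 it was 3 of 10, where 5.71% of 17227 genes were higher and 10.3% passed. These shares of all genes depended on single samples: with 1 left out, 6.06% (without Bar23) to 11.9% (without Bar6) passed over all stages and 3.35% (without Bar23) to 13.1% (without Bar20) at E9.5. At E8.0, with 3 samples against 3, edgeR called 0 of 10 members, DESeq2 called 0 and 0 had an unadjusted p under 0.05, against 0.0244% of 16416 genes called. Log2 fold changes there ran from −0.12 for Id2 to 0.32 for Bmp5. At E8.0 genotype and sex cannot be told apart in full, since the share of male cells, those with a UMI of a Y-linked gene and none of Xist, was 80.5 to 82.4% in mutants and 1.63 to 42.6% in controls. In run 1 at E9.5 the share of male cells was 1.45% (Bar22) and 1.63% (Bar23) in controls. In the mutants there it was 79.4% (Bar19), 2.33% (Bar20) and 78.1% (Bar21). Fits of run 1 alone at E9.5 thus also cannot tell genotype and sex apart in full. The median log2 fold change of the 10 members was 0.21 over all stages and 0.28 at E9.5, beside 0.02 for all genes in each. The genotype effect at E9.5 minus that at E8.0 passed for 0 of 10 in edgeR and 0 in DESeq2, with 2 at an unadjusted p under 0.05 (0.464% of 17872 genes passed in edgeR, and 0.156 to 0.740% with 1 sample left out), so a difference between the stages is not shown. In these sums of all cells, fewer cells of a type and less RNA per cell cannot be told apart.

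**Figure D2:**
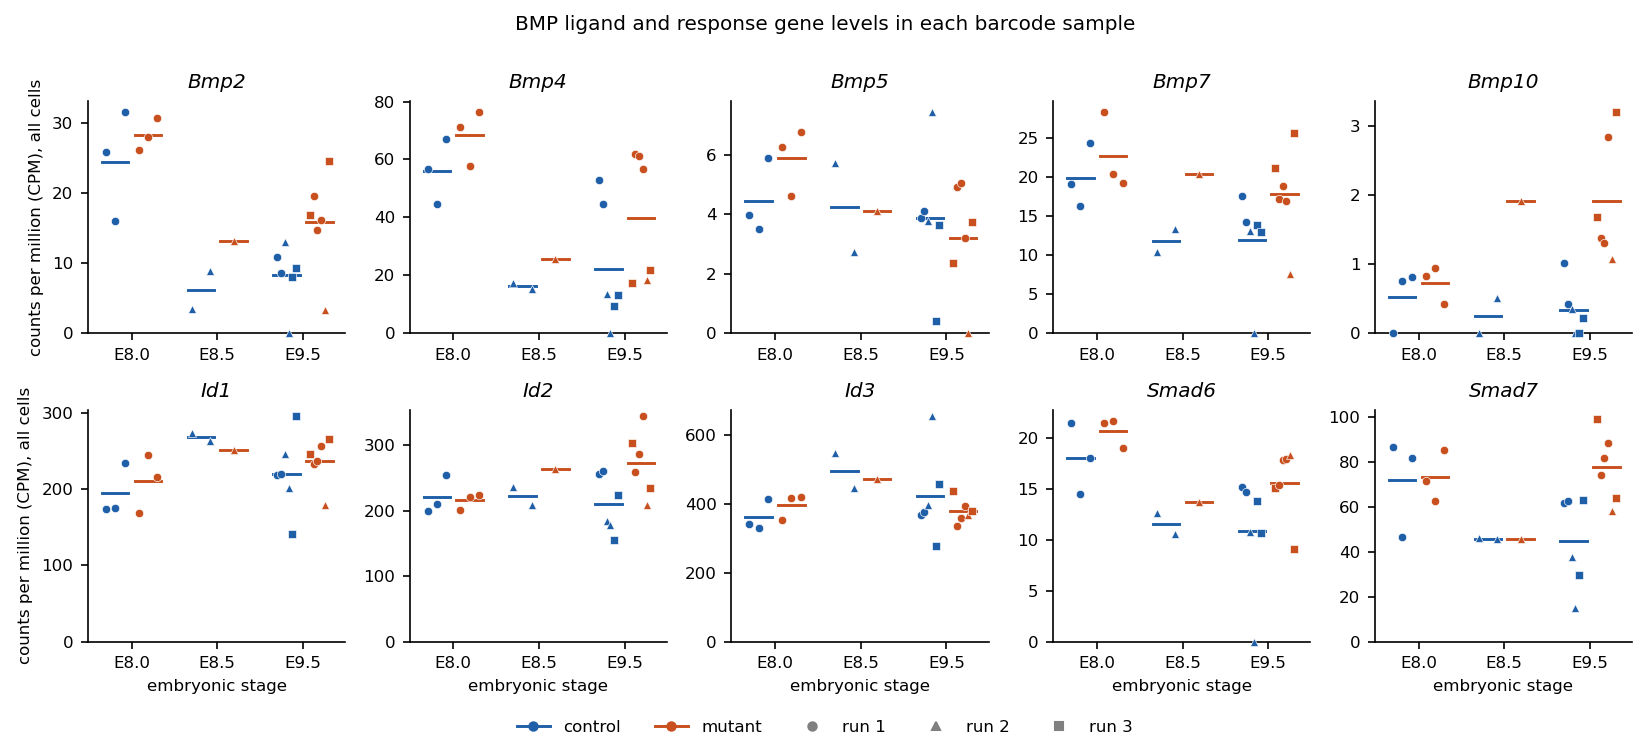
CPM of each of the 10 genes in every barcode sample (points) by embryonic stage, all cells; colour gives the genotype, shape the run and bars the group mean. Bmp10 at E9.5 is the panel in which the 6 mutants (1.08 to 3.20 CPM) lie above the 6 controls (0 to 1.01 CPM), and Bmp4 at E9.5 splits by run in both genotypes.

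Bmp10 and Bmp4 are the 2 members that passed over all stages, so the 250 bases before each annotated start are shown (RefSeq, GRCm38.p6), with matches of the searched motifs in capitals. Bmp10 lies at chr6:87428994-87437677 on the plus strand, and its window at chr6:87428744-87428993. Bmp4 lies at chr14:46383520-46390669 on the minus strand, and its window at chr14:46390670-46390919.
Bmp10: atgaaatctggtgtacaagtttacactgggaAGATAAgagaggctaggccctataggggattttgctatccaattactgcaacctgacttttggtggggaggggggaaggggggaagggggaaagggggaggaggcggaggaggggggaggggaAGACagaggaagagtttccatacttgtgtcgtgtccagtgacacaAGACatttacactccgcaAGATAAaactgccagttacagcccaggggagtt
Bmp4: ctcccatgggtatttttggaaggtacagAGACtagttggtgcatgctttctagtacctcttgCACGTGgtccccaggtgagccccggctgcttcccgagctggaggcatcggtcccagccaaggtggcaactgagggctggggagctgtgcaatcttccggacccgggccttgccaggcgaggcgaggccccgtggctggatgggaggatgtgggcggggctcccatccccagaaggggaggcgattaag

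The motifs searched on both strands were the Smad core GTCT, the GC-rich BMP element GGCGCC, the E-box CACGTG, the GATA motif AGATAA, the T-box motif AGGTGT and the NKX2-5 core AAGTG. The Bmp10 window held the GATA motif at −219 and −33 and the Smad core, as its reverse complement AGAC, at −96 and −51, counted from the start. The Bmp4 window held AGAC at −222 and CACGTG at −188. Of 32841 promoter windows of the same length, 9.99% held the GATA motif, 82.9% the Smad core and 6.02% the E-box. A match is a run of letters and says nothing on binding. Of the 10 members 6 had an entry in the promoter table.

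Bmp10 at E9.5 was found at 0.343, 0, 0, 0.221, 1.01 and 0.421 CPM in the 6 controls and at 1.08, 3.20, 1.68, 1.38, 1.31 and 2.84 CPM in the 6 mutants. Each mutant was above each control. Bmp10 was the only 1 of the 10 members whose E9.5 groups did not overlap, and of the 17227 genes tested 2.39% had all mutants above all controls. The separation was narrow: the mutant Bar5 stood at 1.08 CPM from 1 UMI (exact Poisson 95% interval 0.0273 to 6.00) beside 1.01 CPM in the control Bar22, and the 0 of the control Bar6 has an interval up to 27.4 CPM. The log2 fold change was 1.72 (SE 0.41, edgeR adjusted p = 0.0167), and over all stages 1.32 (SE 0.37, adjusted p = 0.026). E8.0 controls were at 0, 0.756 and 0.813 CPM of Bmp10 and overlapped with E8.0 mutants at 0.830, 0.943 and 0.418 CPM. At E8.5 the mutant had 1.91 CPM (exact Poisson 95% interval 1.17 to 2.95, counting error only) and the larger control 0.506 CPM (0.344 to 0.718), with no test. These values rest on 70 UMIs in E9.5 controls and 95 in E9.5 mutants. With the share of male cells as a covariate the call was lost over all stages (1.39, adjusted p = 0.133) and at E9.5 (1.58, adjusted p = 0.0844), as it was over all stages without E9.5 (0.84, adjusted p = 0.576) and at E9.5 in run 1 alone (1.38, adjusted p = 0.114). It was also lost over all stages without Bar1, Bar3, Bar9, Bar21 or Bar23 (1.15 to 1.28), and at E9.5 without Bar21 (adjusted p = 0.0578) or Bar23 (adjusted p = 0.0952).

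The 5 cardiomyocyte markers summed to 333 to 3760 CPM in E9.5 mutants (median 1194) and 14.9 to 2537 CPM in E9.5 controls (median 749), which overlapped. The mutant Bar8 was the highest E9.5 sample in both, with 3760 CPM of these markers and 3.20 CPM of Bmp10. The control Bar7 had 2537 CPM of the markers and 0 UMIs of Bmp10 (exact Poisson 95% interval up to 1.54 CPM), and the mutant Bar21 had 591 CPM of the markers and 2.84 CPM of Bmp10. The part of heart muscle cells in the Bmp10 difference was not tested beyond the fits that follow. At E8.0 they summed to 1517 to 1720 CPM in mutants and 615 to 1227 CPM in controls, which did not overlap, while Bmp10 did. The share of cells in the cardiomyocyte gate was 8.97 ± 5.39% in E9.5 mutants and 6.89 ± 5.02% in E9.5 controls (n = 6 each). Proepicardial markers summed to 49.9 to 104.0 CPM in E9.5 mutants and 7.44 to 43.5 CPM in E9.5 controls. Without the cells of the cardiomyocyte gate the E9.5 difference of Bmp10 was 1.93 (adjusted p = 0.0404), and over all stages 1.33 (adjusted p = 0.119). In the whole series 440 cells passed this gate and another, and such cells stayed in these sums. The fits thus do not show the level outside heart muscle cells. Within the cardiomyocyte gate Bmp10 had a log2 fold change of 0.60 (SE 0.37) over all stages and 0.80 (SE 0.53) at E9.5, neither of which passed. The E9.5 controls had 0 to 8.66 CPM there and the mutants 5.42 to 16.5 CPM.

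Bmp4 at E9.5 had 13.6, 0, 9.21, 13.2, 52.9 and 44.7 CPM in controls and 18.3, 21.9, 17.4, 61.9, 61.35 and 56.7 CPM in mutants. The levels fell into 2 ranges by run. Run 1 mutants ranged from 56.7 to 61.9 CPM against 44.7 and 52.9 CPM in run 1 controls. Runs 2 and 3 gave 17.4 to 21.9 CPM in mutants against 0 to 13.6 CPM in controls. In runs 1 and 3 each mutant was above each control, in groups of 2 or 3 samples. How many of all genes have this order within a run was not counted, so it is no support by itself. Run 2 cannot show the order: its 1 mutant, Bar5, had 17 UMIs (18.3 CPM, exact Poisson 95% interval 10.7 to 29.3), the control Bar4 had 13.6 CPM (11.8 to 15.6), and the 0 of the control Bar6 has an interval up to 27.4 CPM. The fit, which has a term for run, gave 0.42 (SE 0.12, edgeR adjusted p = 0.0343) at E9.5 and 0.35 (SE 0.09, adjusted p = 0.0158) over all stages. In run 1 alone it was 0.34 and did not pass (adjusted p = 0.0594), and with no run term the call over all stages was lost (0.48, adjusted p = 0.289). That call was also lost with the share of male cells as a covariate (0.41, adjusted p = 0.0588), without E9.5 (0.32, adjusted p = 0.323) and with limma on the mean CPM per cell (0.75, adjusted p = 0.291). At E9.5 it was lost with no low-count filter (0.38, adjusted p = 0.0589) and in run 3 alone (0.55, adjusted p = 0.375). The E9.5 call was lost without any 1 of Bar5, Bar8, Bar9, Bar19, Bar22 and Bar23 (0.37 to 0.50), and the call over all stages without Bar1 (0.32). Of the E8.0 samples, mutants held 71.3, 57.8 and 76.4 CPM of Bmp4 against 56.8, 44.7 and 67.0 CPM in controls, which overlap.

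The run difference of Bmp4 was also seen within gates, in cells of like markers. In the cardiomyocyte gate at E9.5 the run 1 controls had 120.4 and 148.9 CPM and the run 1 mutants 106.5 to 139.1 CPM, while runs 2 and 3 had 23.3 to 44.0 CPM in controls and 33.5 and 38.6 CPM in mutants. The same gate at E8.0, in run 1, had 65.1 to 88.4 CPM in controls and 73.4 to 85.3 CPM in mutants. Within it the genotype effect of Bmp4 was −0.09 (SE 0.10) and did not pass. In the anterior second heart field gate at E9.5 all 3 mutants, at 43.7 to 66.0 CPM, were of run 1, where both controls had 35.5 CPM. The controls of runs 2 and 3 had 5.88 and 12.7 CPM. All mutants were above all controls, as for 9.3% of the genes tested in that gate. The fit with a run term gave a log2 fold change of 0.66 (SE 0.18) that missed the threshold (edgeR adjusted p = 0.0808). What differed between the runs was not tested.

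Smad7 at E9.5 had 37.7, 14.9, 29.7, 63.1, 61.4 and 62.5 CPM in controls and 58.2, 64.0, 98.9, 74.2, 81.5 and 88.1 CPM in mutants. The mutant Bar5, of 57 cells, lay within the controls and the other 5 above them. The log2 fold change was 0.54 (SE 0.15, edgeR adjusted p = 0.0345), and over all stages 0.25 (SE 0.14), which did not pass. Without the samples of under 100 cells, an alternative chosen after the data were seen, the E9.5 value was 0.48 and did not pass (adjusted p = 0.0776), nor did it without any 1 of Bar4, Bar5, Bar10, Bar22 and Bar23 (0.49 to 0.57). In run 1 alone it was 0.44 and passed (adjusted p = 0.0361), and in run 3 alone 0.58 and did not (adjusted p = 0.434). The run 1 samples differ in sex as well as genotype, as given above. Markers of paraxial cells, in which Smad7, Bmp4 and Bmp2 were low, summed to 66.8 to 170.8 CPM in E9.5 mutants (median 125) and 54.9 to 243.4 CPM in E9.5 controls (median 189). In run 1 they were lower in each mutant (125.8, 169.5 and 170.8 CPM) than in both controls (235.5 and 243.4 CPM). The paraxial gate held 8.71 ± 4.05% of cells in E9.5 mutants and 12.4 ± 5.98% in E9.5 controls (n = 6 each), and its part in the differences of these 3 genes was not tested.

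At E8.5 the 1 mutant, Bar1, was set beside the control Bar3 of 2508 cells, with no test and with exact Poisson 95% intervals that cover counting error only. Bmp4 had 25.6 CPM in the mutant (22.6 to 28.8) and 15.1 CPM in the control (14.2 to 16.1). Bmp2 had 13.1 CPM (10.98 to 15.5) and 8.86 CPM (8.13 to 9.63), and Bmp7 20.4 CPM (17.8 to 23.3) and 13.3 CPM (12.4 to 14.2). Against that control these ligands were higher in the mutant sample beyond counting error. The other control, Bar2 of 34 cells, had 17.2 CPM of Bmp4 (9.62 to 28.3), 3.44 CPM of Bmp2 (0.709 to 10.04) and 10.3 CPM of Bmp7 (4.71 to 19.6), and its intervals for Bmp4 and Bmp7 overlapped with those of the mutant. Smad7 had 45.5 CPM in the mutant and 45.7 and 45.8 CPM in the controls Bar3 and Bar2. The cardiomyocyte markers summed to 2658 CPM in the mutant and 230.3 and 553.9 CPM in the controls, and their part in these values was not tested.

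Bmp2 was close to the threshold. At E9.5 it had 13.0, 0, 7.96, 9.21, 10.8 and 8.62 CPM in controls and 3.23, 24.5, 16.8, 19.6, 14.7 and 16.1 CPM in mutants, so 5 of 6 mutants lay above all controls. The mutant Bar5, with 3 UMIs, was above only the control Bar6, which had 0 UMIs of Bmp2. The log2 fold change was 0.73 (SE 0.23, edgeR adjusted p = 0.0524). It passed in run 1 alone (0.84, adjusted p = 0.0361), without the cells of the cardiomyocyte gate (1.08, adjusted p = 0.0266) and without the samples of under 100 cells (0.89, adjusted p = 0.0044). As for Bmp10, the sums without that gate still held cells that passed it and another gate. Bmp2 did not pass in DESeq2 (0.69, adjusted p = 0.0704), in run 3 alone (1.03, adjusted p = 0.173) or with the share of male cells as a covariate (0.76, adjusted p = 0.0635). With 1 sample left out it passed in 3 of 12 fits, with values of 0.60 to 0.91 and adjusted p up to 0.231. Within the cardiomyocyte gate, where Bmp2 was highest, the E9.5 value was −0.29 (SE 0.25) and did not pass.

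**Figure D3:**
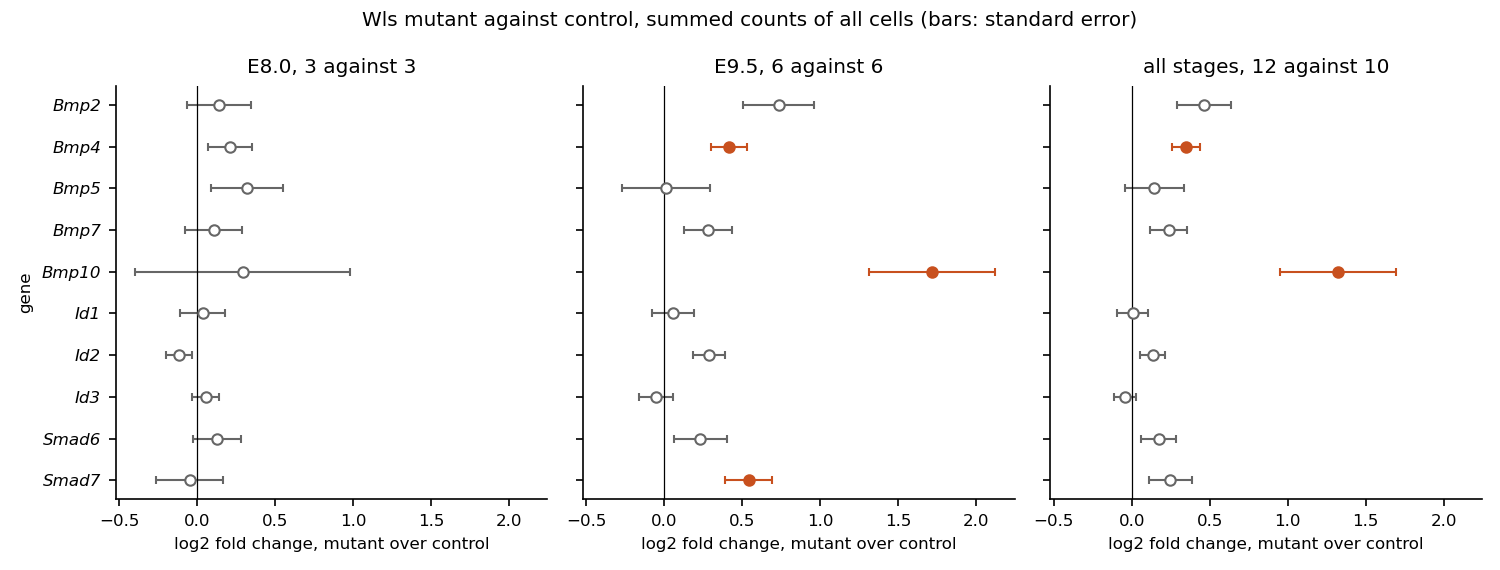
Log2 fold change of mutants over controls with its standard error for the 10 genes, at E8.0, at E9.5 and over all stages; filled points passed the edgeR threshold. At E8.0 no point is filled, and at E9.5 Bmp10 (1.72), Smad7 (0.54) and Bmp4 (0.42) are.

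The other members did not pass at E9.5. The log2 fold changes there were 0.01 (SE 0.28) for Bmp5, 0.28 (SE 0.16) for Bmp7, 0.06 (SE 0.13) for Id1, 0.29 (SE 0.10) for Id2, −0.05 (SE 0.11) for Id3 and 0.23 (SE 0.17) for Smad6. Id2 ranged from 154.5 to 259.8 CPM in controls and from 208.0 to 344.5 CPM in mutants, and passed under DESeq2 (0.33, adjusted p = 0.0199). Id3 ranged from 276.4 to 654.5 CPM in controls and 336.8 to 436.6 CPM in mutants. Of the other pathway genes, Bmpr1a, a type I receptor (0.40, SE 0.11), was the 1 of 8 receptors that passed at E9.5, and Tbx3, a T-box gene (0.62, SE 0.18), the 1 of 6 further response genes. Of all genes tested 10.3% passed at E9.5 and 5.71% were higher, so these calls do not set the lists apart. By edgeR 0 of 4 signal Smads, 0 of 11 tested antagonists and 0 of 4 tested other ligands passed, with 0, 5 and 1 at an unadjusted p under 0.05.

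Within gates few members differed by genotype. Those that did were Id2 and Bmp7, neither of which passed over all cells. Over all stages, 1 of 10 members passed in the cardiomyocyte gate, Id2, which was lower (0.362% of 11876 genes tested were lower and 1.73% passed). In edgeR 0 of 7 tested members passed in the endothelial gate (0.031% of genes), 0 of 7 in the erythroid gate (0.0176%), 0 of 8 in the anterior (0.179%) and 0 of 9 in the posterior second heart field gate (0.0514%), and 0 of 7 in the paraxial gate (7.86%). Of these, 3 in the anterior second heart field gate and 0 in the other 4 had an unadjusted p under 0.05. At E9.5, 1 of 7 passed in the anterior second heart field gate, Bmp7, which was higher (2.14% of genes were higher and 2.94% passed), and 1 of 7 in the paraxial gate, Id2, which was higher (7.31% and 16.1%). The count in the paraxial gate is near the 16.1% of all genes that passed there, so it does not set the members apart. By edgeR 0 of 10 passed in the cardiomyocyte gate (2.83% of genes), 0 of 7 in the erythroid gate (0.146%) and 0 of 9 in the posterior second heart field gate (0.191%), with 2, 2 and 4 at an unadjusted p under 0.05. The shares of all genes that passed within gates were unstable. With 1 sample left out they ran, over all stages, from 0.468% (without Bar22) to 3.00% (without Bar26) in the cardiomyocyte gate, from 1.87% (without Bar23) to 10.5% (without Bar29) in the paraxial gate and from 0 to 1.87% in the other 4 gates. At E9.5 they ran from 0.380% (without Bar23) to 15.4% (without Bar20) in the anterior and from 0% (without Bar22 or Bar23) to 10.2% (without Bar20) in the posterior second heart field gate. In the erythroid gate they ran from 1 gene (without Bar9 or Bar10) to 6.29% of genes (without Bar20), in the cardiomyocyte gate from 1.23% (without Bar22) to 4.34% (without Bar20) and in the paraxial gate from 6.34% (without Bar23) to 18.0% (without Bar4). Over the gates together DESeq2 called 1 pair over all stages and 0 at E9.5. Other settings and samples left out moved the counts of members that passed both ways, as given in the last section.

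**Figure D4:**
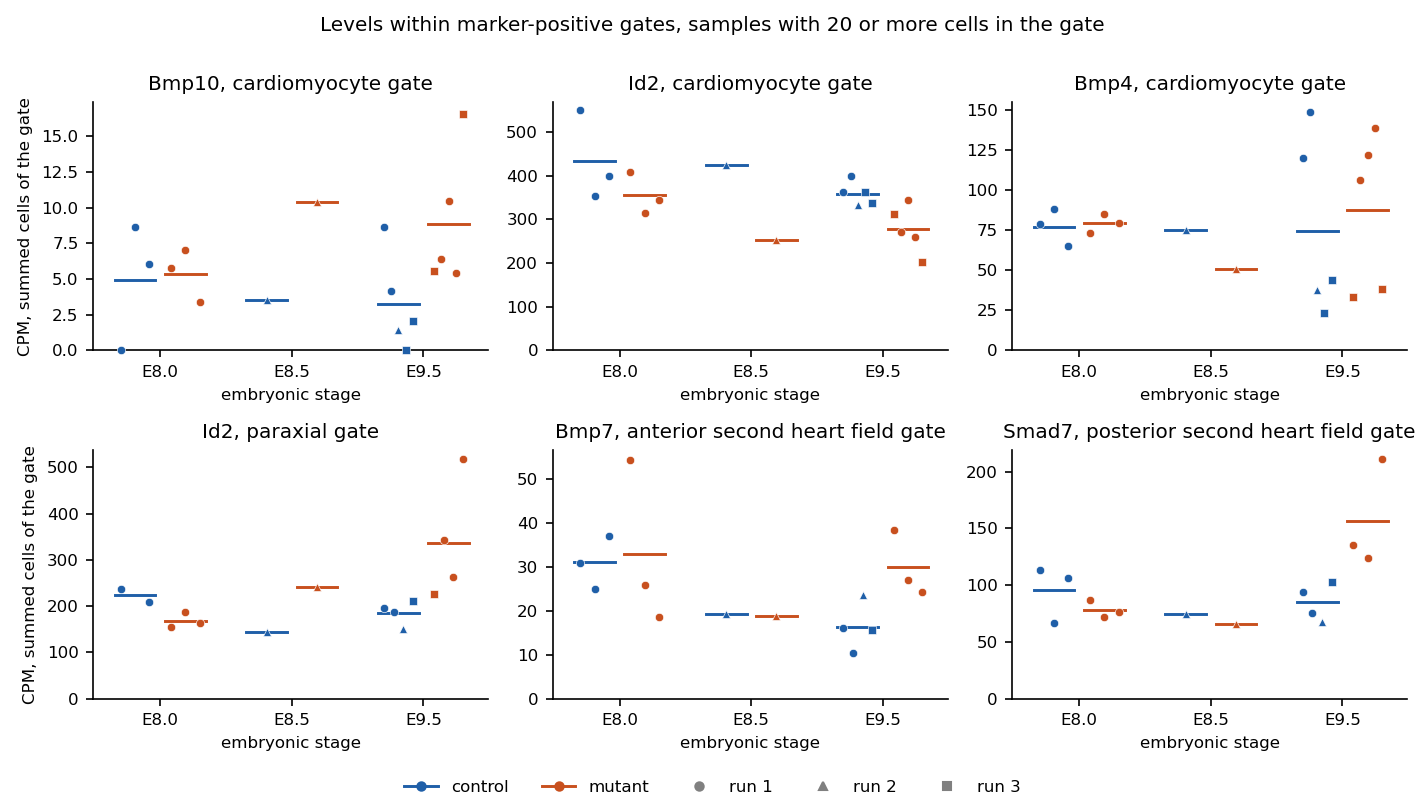
CPM of members within gates in every sample with at least 20 cells of the gate (points), by stage; colour gives the genotype, shape the run and bars the mean. Id2 in the paraxial gate at E9.5 lies at 225.2 to 518.0 CPM in mutants and 149.7 to 211.5 CPM in controls, and Bmp4 in the cardiomyocyte gate splits by run.

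Id2 in the cardiomyocyte gate had 550.5, 352.8 and 399.8 CPM in E8.0 controls and 408.7, 313.7 and 343.1 CPM in E8.0 mutants. The E8.5 mutant stood at 252.6 CPM beside 423.3 CPM in its 1 control. The 5 mutants of E9.5 ranged from 201.3 to 344.8 CPM and overlapped through 1 of them, Bar20, with the 5 controls at 331.8 to 399.3 CPM. The log2 fold change was −0.38 (SE 0.10, edgeR adjusted p = 0.0459), and leaving out any of 12 of the 18 samples ended the call, with values of −0.44 to −0.33. It was also lost with cells of several gates kept (−0.23, adjusted p = 0.105). At E9.5 alone it was −0.37 (SE 0.12) and did not pass.

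Id2 in the paraxial gate went the other way at E9.5. The 4 mutants held 225.2, 342.7, 262.8 and 518.0 CPM, all above the 149.7, 211.5, 195.4 and 186.6 CPM of the 4 controls, as was the case for 7.8% of the genes tested in that gate. The log2 fold change was 0.80 (SE 0.20, edgeR adjusted p = 0.0132). It did not pass in DESeq2 (0.73, adjusted p = 0.181), nor without Bar22 (0.72) or Bar23 (0.68). In E8.0 paraxial cells it lay at 154.2, 188.2 and 162.5 CPM in mutants and 237.8 and 209.3 CPM in controls, a difference in the opposite direction that was not tested. How many of all genes have that order at E8.0 was not counted. In the same E9.5 paraxial cells the antagonist genes Grem1 (1.15, SE 0.26), Fst (0.65, SE 0.14) and Bambi (0.59, SE 0.18), 3 of 6 tested, and Tbx3 (1.71, SE 0.29) were higher in mutants. Of all genes tested in that gate 7.31% were higher and 16.1% passed. Over all stages the antagonists went both ways there, with 2 of 8 tested higher and 1 lower. Alternatives for these other genes are not reported here.

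Bmp7 in the anterior second heart field gate at E9.5 had 23.5, 15.6, 16.1 and 10.3 CPM in the 4 controls and 38.4, 27.0 and 24.2 CPM in the 3 mutants. The mutants lay above the controls, as they did for 9.3% of the genes tested in that gate. The log2 fold change was 1.18 (SE 0.27, edgeR adjusted p = 0.0436). The call was lost under DESeq2 (adjusted p = 0.268), with 4 of 5 markers (1.15, adjusted p = 0.0775), with cells of several gates kept (0.81, adjusted p = 0.0662) and without Bar19 (0.97), Bar21 (1.34), Bar22 (1.52) or Bar23 (0.90). All 3 mutants came from run 1, as did the controls at 16.1 and 10.3 CPM. E8.0 cells of this gate gave 30.8, 24.9 and 37.0 CPM in controls, overlapping with 54.2, 25.7 and 18.5 CPM in mutants. Tbx3 was also higher in this gate at E9.5 (1.39, SE 0.22, edgeR adjusted p = 0.00707). It was 1 of 5 tested further response genes, where 2.14% of all genes were higher.

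In the posterior second heart field gate at E9.5, Smad7 had 67.1, 102.8, 93.7 and 75.3 CPM in controls and 135.3, 123.5 and 211.5 CPM in mutants. The mutants were all of run 1, as were the controls at 93.7 and 75.3 CPM. The mutants lay above the controls, as for 7.38% of the genes tested in that gate, and the log2 fold change of 0.90 (SE 0.24) did not pass in edgeR (adjusted p = 0.168). Id3 in the endothelial gate at E9.5 had 426.2 to 926.6 CPM in 4 controls and 321.5 and 288.3 CPM in 2 mutants, which was not tested, since tests within gates were run with at least 3 samples per genotype. How many of all genes separate these samples was not counted, so the order is no support by itself. Over all stages the value of Id3 in that gate was −0.10 (SE 0.14) and did not pass.

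Between stages, Bmp2 and Bmp4 were lower and Id1 and Id2 higher at E9.5 than at E8.0, with genotype as a covariate. These were 2 of 10 members lower, where 10.0% of 18063 genes were lower, and 2 of 10 higher, where 12.5% were; 22.5% passed in all. Bmp2 had 15.9 to 31.5 CPM in the 6 E8.0 samples and 0 to 24.5 CPM in the 12 E9.5 samples. Its log2 change was −0.90 (SE 0.19, edgeR adjusted p = 0.00177), and −0.98 (adjusted p = 0.0026) in run 1, which holds both stages. Bmp4 changed by −0.76 (SE 0.27, adjusted p = 0.0466) over all runs but by −0.17 (adjusted p = 0.199) within run 1, so its fall was not seen apart from the run. Id1 changed by 0.33 (SE 0.11, adjusted p = 0.0341), and by 0.21 without passing in run 1. The calls of Id1 and Id2 were lost with no low-count filter (adjusted p = 0.0606 and 0.0765). Id2 changed by 0.28 (SE 0.09, adjusted p = 0.0344), by 0.38 (adjusted p = 0.0108) in run 1 and by 0.07 without passing in controls alone. The call of Bmp2 held when any 1 of the 21 samples was left out (−0.97 to −0.78). That of Bmp4 was lost without any 1 of 14 of them (−0.90 to −0.68 over all 21), that of Id1 without Bar21, Bar24, Bar25, Bar26 or Bar28 (0.28 to 0.39) and that of Id2 without Bar24, Bar25, Bar27 or Bar28 (0.23 to 0.34).

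At E8.5 against E8.0, Bmp2 (−1.20, SE 0.30) and Bmp4 (−1.47, SE 0.44) were lower and Id1 (0.54, SE 0.15) and Id3 (0.50, SE 0.16) higher, 2 of 10 each way, where 9.83% of genes were lower, 9.15% higher and 19.0% passed. With 1 sample left out 2.71% (without Bar3) to 23.4% (without Bar4) of genes passed. Stage and run coincide here: with run as a term 0 of 10 passed, and Bmp4 was at 0.011 and Id3 at −0.050. Without the mutant Bar1 none of the 4 calls held, without Bar3 only that of Bmp2 did, and that of Id3 was also lost without Bar2, Bar10, Bar24, Bar25 or Bar26. At E9.5 against E8.5, 0 of 10 passed in edgeR and 0 in DESeq2, with 0 at an unadjusted p under 0.05 (0.0332% of genes passed in edgeR, and 0 to 12.7% with 1 sample left out, the highest without Bar4). Of the other pathway genes, those lower at E9.5 than at E8.0 were the ligand Gdf2 (−3.03) and 3 of 13 antagonists, Cer1, which binds Nodal and BMPs (−3.01), Bmper (−1.18) and Fst (−0.85). Of all genes 10.0% were lower. Among the pathway genes that were higher was the receptor Bmpr1b (1.43), and changes thus went both ways. These values come from the fit with no run term. Their values within run 1 are not reported here, so stage and run are not told apart for them.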

How the data were processed

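The deposited file holds counts of UMIs per gene and cell, which the authors made with kallisto and bustools (bustools 0.46.1) and GRCm38, per the submitters' processing notes, which also name Cell Ranger. Cells were assigned to lipid barcodes by MULTI-seq, per the labels. Use of strand and filters on cells are not given in the sources used here. The 14777 deposited cells had a median of 21739 UMIs (895 to 102853), and no per-sample value columns were left unused (0).

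Counts were summed per barcode sample, and per gate and sample where a gate had at least 20 cells. Sums were tested with edgeR's quasi-likelihood test (edgeR 4.0.16, R 4.3.3; filterByExpr, TMM, Benjamini-Hochberg over all genes tested, threshold 0.05). Genotype over all stages was fitted with stage and run, E9.5 with run and E8.0 with no covariate, and E8.5, with 1 mutant, was not tested. Stages were compared with genotype as covariate. The SE of an edgeR value is its size divided by the square root of the F statistic. DESeq2 1.42.0 and limma 3.58.1 gave alternatives. CPM are counts per 1000000 UMIs of the same cells, with no correction for gene length, so levels are not compared between genes. Named genes are the 10 members, Wls as a check, of the other pathway genes those that passed, at most 4 each way by size of change (some gate markers and pathway genes are not reported here), and the genes of most like pattern among those reaching 50 CPM in a sum of at least 50 control cells. Members and lists were chosen with earlier results of these data known. Doublets were not called, and cells passing several gates were left out. For shares of cells, each cell was thinned to 5000 UMIs, and the 447 shallower cells were left out. Tests were checked on simulated data. Python 3.11.15, numpy 2.4.6, pandas 2.3.3, scipy 1.17.1 and matplotlib 3.10.9 were used.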

Additional observations from a re-analysis of the deposited data

Results flagged for a closer look

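In 4 of 20 groups of 6 samples tested for a sample far from the rest, 1 sample stood apart by Dixon's criterion, and chance gives about 1 in 20. Bmp7 and Smad6 were both at 0 CPM in the E9.5 control Bar6, which held 6 cells and 134457 UMIs, so that 3 counts would be 22.3 CPM. Id1 was at 178.9 CPM in the E9.5 mutant Bar5 (57 cells), below the 233.4 to 265.2 CPM of the other 5 mutants. Smad6 was at 9.07 CPM in the E9.5 mutant Bar8 (168 cells, 17 UMIs of Smad6), below the 15.1 to 18.3 CPM of the other 5.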

How the results depend on the processing

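Of 2413 values under alternatives, 689 under other settings and 1579 with 1 sample left out kept their side of the threshold, and 104 of these changed sign without passing either way. Over all stages 2 members passed by genotype: 1 with no run term, 1 without the cardiomyocyte gate cells, 1 with limma on mean CPM per cell, 0 with the share of male cells as covariate, 0 without E9.5, and 0 to 3 with 1 sample left out. At E9.5 3 passed: 5 with DESeq2 size factors, 0 in run 3 alone, and 0 (without Bar23) to 5 with 1 sample left out. At E8.0 and for E9.5 minus E8.0 the count stayed at 0 under each alternative run. For E9.5 against E8.0 4 passed: 2 with no low-count filter, 2 with a run term, 2 in run 1 alone, 1 in controls alone, and 1 to 4 with 1 sample left out. For E8.5 against E8.0 4 passed: 0 with a run term, 0 in controls alone, and 0 (without Bar1) to 4 with 1 sample left out. With the run term the values of Bmp4 (0.011) and Id3 (−0.050) there changed sign. Within gates 1 pair passed over all stages: 3 with no filter, 3 with 4 of 5 markers, 2 with gates after thinning, 0 with cells of several gates kept, and 0 to 1 with 1 sample left out. At E9.5 2 passed: 0 with DESeq2, 6 with no filter, 4 with 4 of 5 markers, and 0 (without Bar22 or Bar23) to 11 (without Bar20) with 1 sample left out. Of the lineage pairs 48 passed, 37 to 54 under alternatives and 46 to 49 with 1 sample left out, and Bmp4 in the endothelial gate was −0.40 with 4 of 5 markers. The cause of these changes was not tested. The alternatives without samples of under 100 cells, and with the male share at E9.5, were chosen after seeing the data. No paired analysis was possible because the labels give no replicate numbers shared between the genotypes. Bmp10, with 274 UMIs, is limited by depth, and by the limit of 3 counts a gene at 0 in Bar6 could be at up to 22.3 CPM.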
